A study of Drosophila melanogaster with 3 samples.

Results

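Among the thresholded peaks of the wek-GFP protein on the Drosophila melanogaster genome, 370 had no counterpart in the region list of biological replicate 2, and the other 3212 had one. They were selected on measured values: a peak of the pooled libraries was a member when it shared not even 1 base with any region of that list. The 370 peaks were 10.3% of all peaks (95% exact binomial interval 9.35 to 11.4%). By the same rule 19 peaks were absent from the list of replicate 1 and 49 from that of replicate 3, while 3156 peaks had a region in all 3 lists and served as the comparison. Of the 370 members, 368 had a region in both other lists; the peak in CG9663 had one in replicate 1 but not in replicate 3, and the peak in rdx had one in replicate 3 but not in replicate 1. Absence from a list does not mean absence of signal. Each replicate list held 30000 regions, and the weakest region of replicate 2 still had a signal of 14.6, so a member lay below the reach of that list or beside its regions.

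The chromatin came from a single group, embryos aged 0 to 16 h of a transgenic line with GFP fused to the C-terminal end of wek, with males and females pooled and sampled as 3 biological replicates. All 3 replicates carry the same transgene, and an untagged line was not analysed here, so no comparison between conditions was made. Chromatin had been sonicated to 200 to 800 bp, and whole embryos of this age range mix all tissues and many stages. The labels disagree with themselves: the assay and antibody fields name a precipitation of wek, while the free-text description calls each library an input control.

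Weckle, the product of wek, is a zinc finger protein with an N-terminal ZAD domain, a fold typical of a large insect family of DNA-binding proteins, and it has a described role beside Toll, as an adaptor that links the receptor to its partners inside the cell. In chromatin immunoprecipitation, fragments bound by the tagged protein are enriched and sequenced, and regions where fragments pile up are listed with a summit and a signal. A reproducibility analysis (IDR) compares the ranks of regions between libraries and keeps those that rank high together. Promoters are the stretches around transcription start sites where RNA polymerase assembles. Some hold a TATA box at a fixed distance before the start, others the DRE bound by the factor DREF, and GA repeats are bound by the GAGA factor.

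Of the 7 sequence elements that differed between the members and the comparison peaks, 4 are shown here, because each of them also differed against peaks of matched signal or among promoter peaks alone: the GAGA repeat GAGAGAG, the DRE TATCGATA, the TATA box TATAAA and the word GAATACCC. They were searched on both strands within 100 bp of each summit. For each element, 2 members that hold it are shown, those of highest signal once 1 chromosome arm, named with the methods, had been left out. Letters are from the RefSeq genome on the plus strand of dm6; a stretch was clipped at untranslated sequence, or to 30 bases around an element that lies in it or reaches it, with the element in capitals (in the reverse orientation where the match is on the minus strand). They lie at chr2L:5237363-5237509 for tkv, chrX:8409967-8409996 for lawc, chr3R:4433896-4433964 for eIF3a, chr2L:13780673-13780702 and chr2L:13780765-13780822 for p38b, chr3R:7977625-7977654 for CD98hc, chr2L:4448802-4449002 for MFS18 and chr3R:7086527-7086598 for alphaTub84B.
tkv GAGA repeat: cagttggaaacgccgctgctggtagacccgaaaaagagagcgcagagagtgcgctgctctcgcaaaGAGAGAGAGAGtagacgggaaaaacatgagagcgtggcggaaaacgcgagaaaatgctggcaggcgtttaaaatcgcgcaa
lawc GAGA repeat: gagagcatgcgCTCTCTCgcccgtatacgt
eIF3a DRE: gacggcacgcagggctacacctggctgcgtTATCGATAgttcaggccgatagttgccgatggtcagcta
p38b DRE: ccatttgcggtTATCGATAgccaagacagc
p38b GAATACCC: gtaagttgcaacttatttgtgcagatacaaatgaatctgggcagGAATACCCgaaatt
CD98hc GAATACCC: tggaatcgggtGGGTATTCagcagctgcgt
MFS18 TATA box: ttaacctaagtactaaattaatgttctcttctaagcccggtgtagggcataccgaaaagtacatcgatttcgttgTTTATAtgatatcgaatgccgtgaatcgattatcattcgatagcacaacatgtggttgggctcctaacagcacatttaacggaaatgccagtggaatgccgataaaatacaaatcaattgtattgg
alphaTub84B TATA box: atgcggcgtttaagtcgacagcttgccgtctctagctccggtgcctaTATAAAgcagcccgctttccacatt

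Across the series, the thresholded peaks were exactly the regions of highest signal among the 30000 regions of the pooled libraries. Signal is the value the authors gave each region in their lists; it ranks regions within 1 list, its scale differs between lists, and read depth is unknown from these files. Replicate 2 stood apart from the others. Its list held 2216 regions with a q-value of at most 0.01, against 8919 in replicate 1 and 9834 in replicate 3. The lists also differed in what they covered. Of 19252 coding start sites, the regions of replicate 2 overlapped 40.5%, those of replicate 1 58.6% and those of replicate 3 58.2%. Among as many of each replicate's strongest regions as there were thresholded peaks, the median share of G and C within 100 bp of the summit was 38.3% in replicate 2, 41.3% in replicate 1 and 42.8% in replicate 3. Of these same regions, 41.9% had their summit within 500 bp of a coding start site in replicate 2, 53.8% in replicate 1 and 55.6% in replicate 3. The part of these differences in the results on the members was not tested, and since replicate 2 defines the members, no result on them can be given without it.

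The members were peaks of low to middle strength in the pooled list and of middle to high rank in the replicates that held them. As values the selection rests on, they are described without a test. Pooled signal of the members ran from 146.3 to 736.8 with a median of 176.9, against a median of 228.8 in the comparison peaks. In replicate 1 the 369 members with a region had ranks from 280 to 7468 (median 2221), and 315 of the 370 fell within the replicate's strongest regions, counted to the number of thresholded peaks. In replicate 3 the 369 members with a region had ranks from 98 to 15093 (median 1810), and 301 of the 370 fell within that number of strongest regions. So most members were among the strongest regions of both other replicates while having none in the list of replicate 2. The 370 comparison peaks of nearest pooled signal ranked at a median of 2696.5 in replicate 1, 2541.5 in replicate 2 and 3265 in replicate 3. That members ranked higher in replicates 1 and 3 than peaks of equal pooled signal follows from how both sets were chosen and is no finding.

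**Figure D1:**
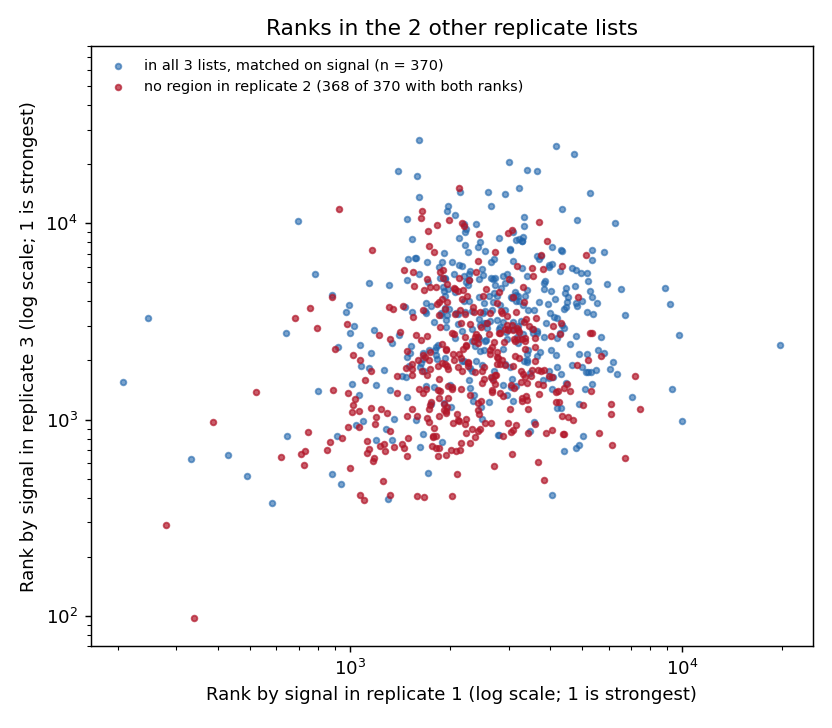
Rank by signal in replicate 1 (x axis, log scale) and in replicate 3 (y axis, log scale) for the 368 members with both ranks and the 370 comparison peaks matched on pooled signal; each point is 1 peak and rank 1 is the strongest region. The plotted members' median ranks were 2217 and 1800.5, those of the matched peaks 2696.5 and 3265.

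Distance to the nearest region of replicate 2 varied widely among the members. The gap ran from 31 to 23995 bp with a median of 1217.5 bp; 93 members had a replicate 2 region within 500 bp of their edge and 75 had none within 5000 bp. Just inside the threshold lay the peak at the promoter of Gmppa, a GDP-mannose pyrophosphorylase homolog, with a gap of 31 bp, and those of Vha13, a subunit of the vacuolar proton pump, with 40 bp and of waw with 42 bp. Just outside it, the peak of CG9171 shared 8 bp with a region of replicate 2, that of CG33523 shared 16 bp and that of nkd, a Wnt pathway antagonist, shared 27 bp. Their pooled signals were 556, 231 and 149.8 inside and 158, 162 and 219 outside, so the values on the 2 sides of the rule overlapped. Peak width was 370 bp, the most frequent width, in 352 of the 370 members, 320 of the 370 matched peaks and 1770 of the 3156 comparison peaks.

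The strongest members show how large the disagreement could be. The peak with the highest pooled signal, 736.8, lay at chr2R:15992391-15992633, with its summit 107 bp downstream of the start of CG8320. It ranked 340 in replicate 1, with a signal of 315.4, and 98 in replicate 3, with a signal of 239.5, while the nearest region of replicate 2 was 14232 bp away. No other member ranked as high in replicate 3. Cirl, the fly latrophilin and an adhesion receptor, had a peak in an intron at chr2R:8615249-8615497, with a pooled signal of 622, ranks of 280 and 290 in replicates 1 and 3, and a gap of 5901 bp. In contrast, the Gmppa peak at chr2R:15678903-15679135 ranked 387 in replicate 1 and 966 in replicate 3 but stood right beside a region of replicate 2. All remaining members had signals of 374 or less.

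Below them, members lay at genes of many kinds. MFS18, a membrane transporter of the major facilitator family, had a signal of 374 with its summit 267 bp upstream of the start. Unc-115a, an actin-binding protein, had an intronic peak of signal 371 and a member at its promoter of signal 189.5. Among the other members of the top 20 by signal were Acsl, a long-chain acyl-CoA synthetase (343), sesB, the mitochondrial ADP/ATP translocase (339), and simj, a subunit of the NuRD chromatin complex (330). NHP2, a protein of small nucleolar ribonucleoproteins, had 311, hts, the fly adducin, 308, alphaTub84B, an alpha-tubulin, 299, Mgat2, an enzyme of N-glycan synthesis, 298, and lwr, the SUMO-conjugating enzyme, 284. Of these top 20, all had a region in replicates 1 and 3, the lowest rank being 3695 for sesB in replicate 3.

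Members lay at promoters far more often than the other peaks did. The replicate 2 list, which defines them, was itself poorer in promoters than the other lists, as given above. A summit was within 500 bp of a coding start site for 306 of the 370 members, or 82.7% (exact interval 78.5 to 86.4%), against 1491 of 3156 comparison peaks, or 47.2% (45.5 to 49.0%). The odds ratio was 5.34, with an adjusted p of 1.27e-39 (2-sided Fisher's exact test, Benjamini-Hochberg over the 15 location features). Against the peaks matched on signal, 158 of 370 at promoters (42.7%), the odds ratio was 6.42 with an adjusted p of 6.67e-29 in the same exact test. Regions of 1 library set are not replicates, so these p-values describe the regions listed and say nothing about other embryos. Of all 15 features, 5 passed an adjusted p of 0.05, which is 33.3% of those tested, and the same share, 33.3%, passed against the matched peaks. The features are not independent, since location classes exclude one another.

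Introns and intergenic sequence held fewer of the members. A promoter summit was counted in no other class, nor as over 5000 bp from a start site. The lower shares below thus go with the higher promoter share and are not separate results. Shares among summits away from promoters alone were not tested. Introns held 40 members, or 10.8%, against 36.3% of the comparison peaks and 39.5% of the matched ones (odds ratio 0.212, adjusted p 1.25e-25 against the comparison, Fisher's exact test). Intergenic sequence held 16 members, or 4.32%, against 11.7% (odds ratio 0.341, adjusted p 1.08e-05, exact test). Summits over 5000 bp from any coding start site numbered 16, or 4.32% of members, against 17.0% (odds ratio 0.220, adjusted p 3.22e-12, exact test). The other features did not pass: exons held 1.35% of members and 2.66% of comparison peaks, divergent start sites 13.5% and 12.6%, and another peak within 5000 bp stood beside 47.0% and 52.3%. None of the 6 chromosome arms tested, the fourth chromosome included, passed either; 2R held 22.2% of the members and 19.9% of the comparison peaks.

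**Figure D2:**
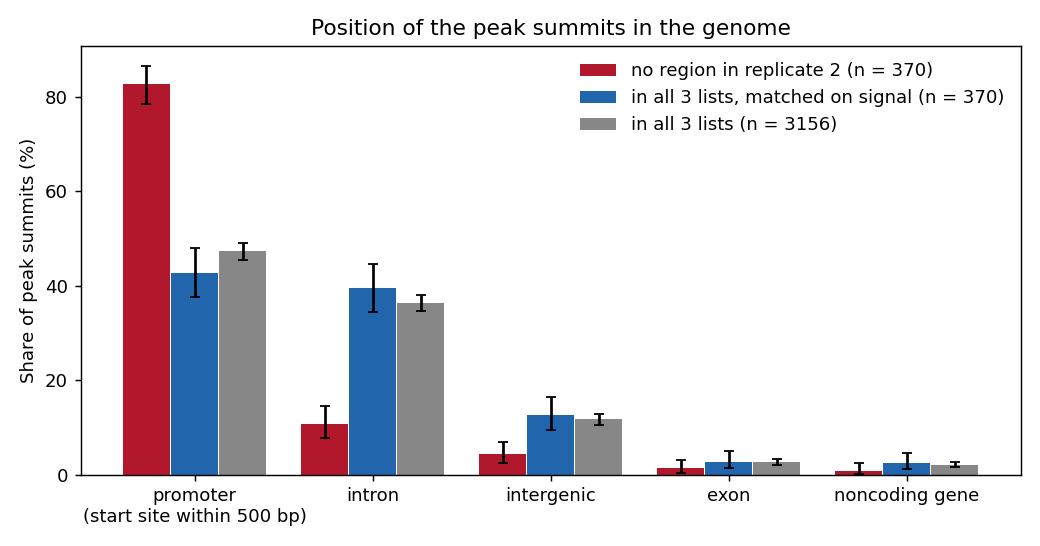
Share of peak summits (%) in each location class for the 370 members, the 370 comparison peaks matched on signal and all 3156 comparison peaks; bars start at 0 and error bars are 95% exact binomial intervals, which cover counting error alone. Promoters held 82.7% of the members, 42.7% of the matched peaks and 47.2% of the comparison.

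Within promoters, the members' summits lay around the start site on both sides, whereas those of other peaks lay mostly before it. The lists themselves differed in this. Among promoter summits of each replicate's strongest regions, 75.8% were upstream in replicate 2, 64.7% in replicate 1 and 61.5% in replicate 3. The part of that difference in the members' positions was not tested. The median position was 3 bp downstream of the start for the 306 promoter members (quartiles -48.75 and 46.75 bp), against -55 bp for the 1491 comparison peaks (quartiles -144.5 and 11 bp) and -63 bp for the 158 matched ones. Upstream summits made up 145 of 304 members, or 47.7%, and 1062 of 1487 comparison peaks, or 71.4%, leaving out summits at the start itself. This gave an odds ratio of 0.365 and an adjusted p of 2.66e-14 against the comparison, and 0.422 with 8.39e-05 against the matched peaks (Fisher's exact test). Taken from the replicates' own summits, the members' median position was 9 bp in replicate 1 and 1 bp in replicate 3, while that of the comparison peaks was -51, -68 and -37 bp in replicates 1, 2 and 3.

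Read the other way, the share of promoter peaks that lacked a region in replicate 2 varied with where the summit lay. Among all 1832 promoter peaks 16.7% were members. The share was 1.68% for summits 301 to 500 bp upstream and 7.33% for those 101 to 200 bp upstream. It was 18.6% in the last 50 bp before the start, 31.2% in the first bases after it (0 to 50 bp) and 32.8% from 51 to 100 bp. Beyond that it was 27.4% from 101 to 200 bp and 14.7% from 201 to 300 bp. From 301 to 500 bp downstream it was 3.17%, where 2 of 63 peaks were members.

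**Figure D3:**
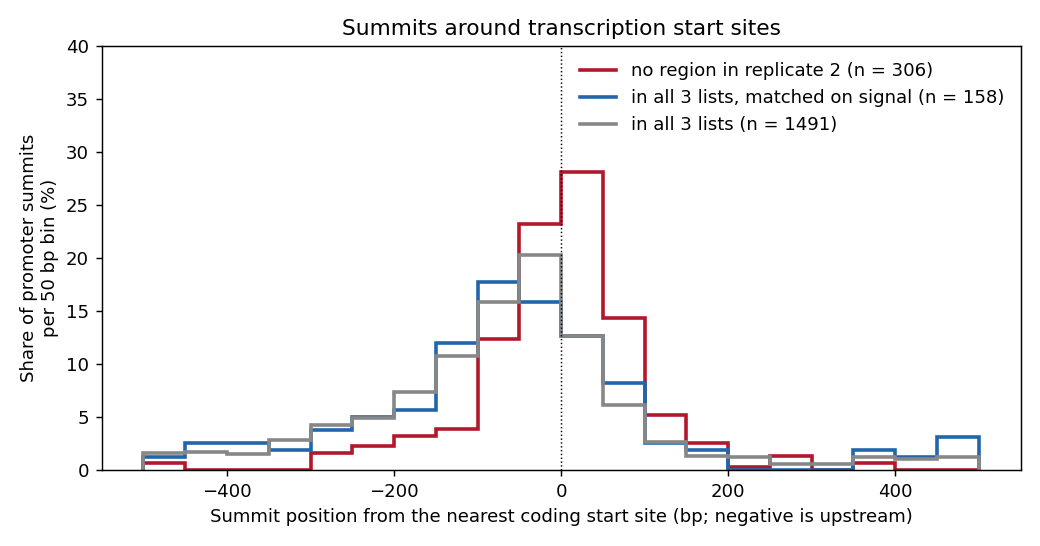
Share of promoter summits (%) per 50 bp bin of position from the nearest coding start site (bp, negative is upstream) for members, matched peaks and all comparison peaks. The members' median was 3 bp, that of the comparison -55 bp and that of the matched peaks -63 bp.

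Base composition moved with membership as well. The median share of G and C within 100 bp of the summit was 45.8% in members, 39.8% in comparison peaks and 40.5% in matched ones, and 305 of the 370 members lay above the comparison median. At promoters, the share of peaks that were members was 4.74% where under 35% of bases were G or C, and 36.3% where 50% or more were. Away from promoters the same classes gave 1.74% and 9.33%. Summits downstream of a start site reached 43.7% in the class of 50% and over, with an exact interval of 34.8 to 52.8%, and upstream summits 29.6% (22.2 to 37.8%). In the class from 40 to 45% the values were 29.7% downstream (22.6 to 37.5%) and 13.0% upstream (9.20 to 17.6%), and from 45 to 50% they were 31.8% (24.4 to 39.9%) and 21.7% (15.5 to 28.9%). From 35 to 40% they were 8.25% and 5.56%, and under 35% they were 4.84% and 4.72%. The downstream and upstream intervals were apart in the class from 40 to 45% and overlapped in the other 4. In point values, promoter peaks thus had a higher share of members than other peaks in all 5 classes of base composition. The part of base composition in the promoter result was not tested beyond these classes; among peaks with G and C at or above the median of all peaks, the odds ratio for promoter location was 6.39.

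**Figure D4:**
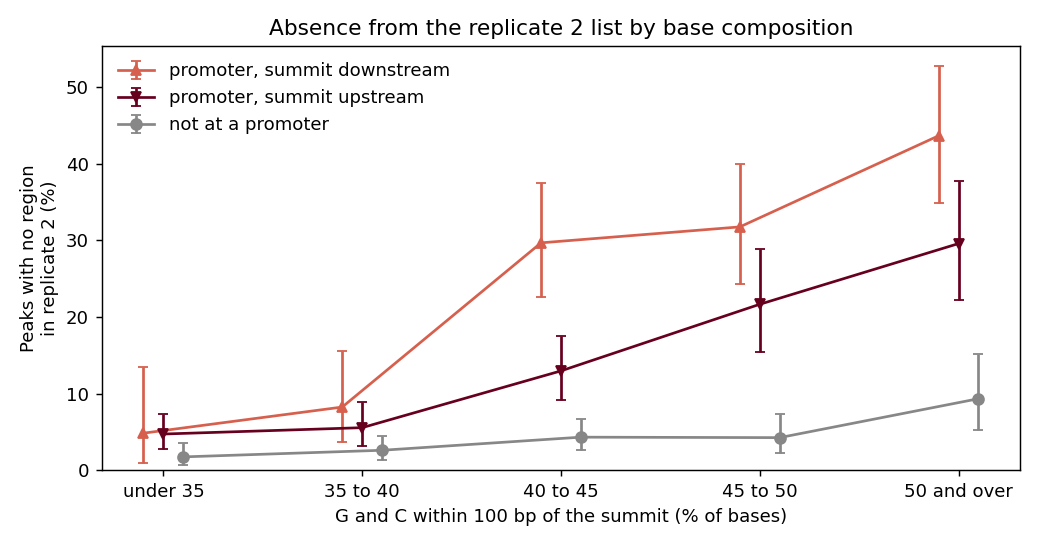
Share of peaks with no region in replicate 2 (%) by the share of G and C within 100 bp of the summit (% of bases), for promoter peaks with the summit downstream or upstream of the start site and for peaks away from promoters; error bars are 95% exact binomial intervals. The share was highest, 43.7%, for downstream promoter peaks with 50% G and C or more, and lowest, 1.74%, for peaks away from promoters under 35%.

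Pooled signal divided the peaks too. When the peaks were divided into 5 equal classes of signal, promoter peaks in the lowest class, from 146.3 to 165.9, were members in 33.2% of cases, and other peaks of the same signal in 7.52%. In the highest class, above 373.4, these shares were 0.655% and 0.386%, which is 3 promoter peaks and 1 other peak. A promoter peak was therefore a member more often than another peak at equal signal in each of the lower 4 classes, while the highest class held too few members to compare.

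The same division was made in each replicate's own list, using its strongest regions, as many as there were thresholded peaks, in place of the pooled peaks. These regions overlap the pooled peaks to a large extent, since the pooled list stems from the same libraries, and are therefore no independent support. Of the strongest regions of replicate 1, 552 had no region in replicate 2, and 80.1% of those lay at promoters, against 48.9% of those found in all lists. Of the strongest regions of replicate 3, 876 had none in replicate 2, and 76.1% of those lay at promoters, against 48.9%. The mean was 78.1% ± 2.78 (SD, n = 2 replicates) for regions absent from replicate 2 and 48.9% ± 0.0194 for those in all 3 lists. Upstream summits made up 46.1% ± 2.52 of the promoter regions absent from replicate 2 and 69.4% ± 1.71 of the others. Both values rest on the same list of replicate 2, and regions in all 3 lists overlap between replicates 1 and 3. The SD is thus no measure of spread between independent replicates. An exact permutation test of 2 values a side cannot pass 0.05 either, so no test is given.

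The reverse lookup gave the opposite share. Among the strongest regions of replicate 2, the 172 with no region in replicate 1 lay at promoters in 23.8% of cases and the 275 with none in replicate 3 in 30.2%, against 43.1% of those found in all lists. Looked up between replicates 1 and 3, 56.8% of the 81 strongest regions of replicate 1 missing from replicate 3 and 55.7% of the 88 of replicate 3 missing from replicate 1 lay at promoters, each against 48.9%. Among the pooled peaks, 9 of the 19 absent from replicate 1 and 32 of the 49 absent from replicate 3 were at promoters, which is 47.4% and 65.3%.

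**Figure D5:**
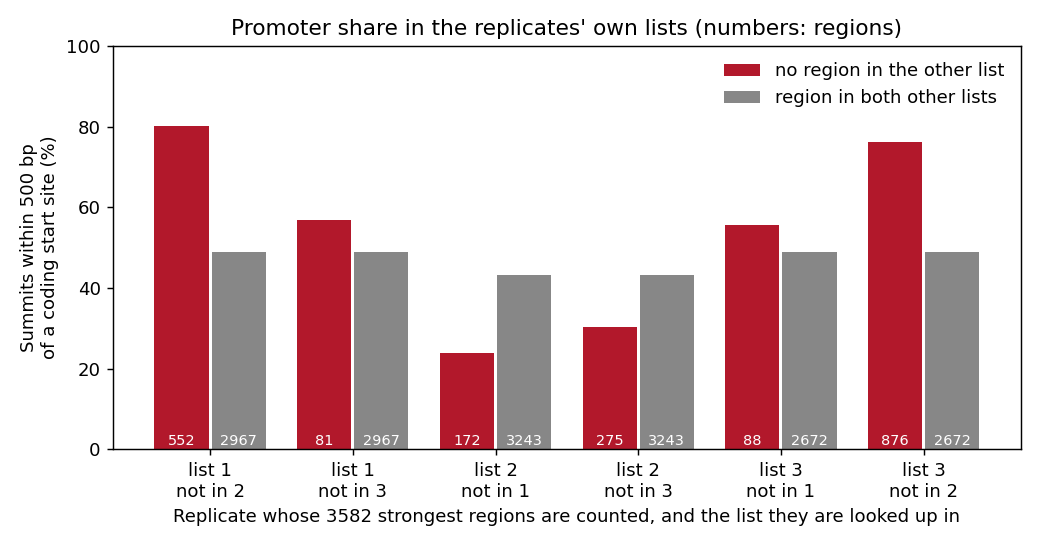
Share of summits within 500 bp of a coding start site (%) among each replicate's strongest regions (as many as thresholded peaks), divided by whether the region had a counterpart in the list it was looked up in (dark red, none; grey, a region in both other lists); white numbers are regions and no error bars are drawn. Regions missing from replicate 2 stood at 80.1% and 76.1%, regions of replicate 2 missing from the others at 23.8% and 30.2%.

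Of 28 sequence elements searched around the summits, 7 passed an adjusted p of 0.05 between members and comparison peaks, 25.0% of those tested; 3 passed against the matched peaks and 3 among promoter peaks alone, 10.7% in each case. The GAGA repeat, as in the tkv and lawc sequences above, was in 47 members or 12.7%, and in 6.78% of the comparison, 4.05% of the matched, 7.37% of all peaks and 4.69% of all coding start sites. Its odds ratio was 2.00 (adjusted p 0.00373, Fisher's exact test), 3.44 against matched peaks (0.000765) and 1.80 among promoter peaks (0.0481). The TATA box was less frequent in members: 61 held it, or 16.5%, against 24.4% of the comparison (odds ratio 0.611, adjusted p 0.00814, exact test), 25.4% of the matched peaks (adjusted p 0.0350), 23.6% of all peaks and 26.9% of all start sites. In the alphaTub84B peak it began 25 bp before the start site, and in the MFS18 peak it began 247 bp before it. TATA boxes and GAGA repeats thus differed in each of these 3 comparisons, in opposite directions. Neither passed among peaks with G and C at or above the median, a setting chosen after seeing the data, where the odds ratio was 1.44 for the GAGA repeat (adjusted p 0.270) and 0.805 for the TATA box (adjusted p 0.554, exact test).

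The DRE was in 24 members, 6.49% against 3.55% of the comparison and 1.35% of the matched peaks (adjusted p 0.0379 and 0.00598, exact test); it was in 3.88% of all peaks and 6.45% of all start sites. Within promoter peaks its shares were 7.52% in members and 7.11% in the comparison, an odds ratio of 1.06 that did not pass (adjusted p 1.00, exact test). Nor did the DRE pass when presence meant a replicate 2 summit within 200 bp (odds ratio 1.65, adjusted p 0.0930), with the 15000 strongest regions of replicate 2 (1.48, 0.177) or within 50 bp of the summit (1.43, 0.552). The eIF3a promoter held a DRE that began 38 bp before the start, and that of p38b, a stress-activated MAP kinase, one beginning 5 bp before it. The word GAATACCC was in 2 members, those at p38b and at CD98hc, an amino acid transporter subunit, which is 0.541% against 3.17% of the comparison (odds ratio 0.166, adjusted p 0.0110, exact test). It was in 0.811% of the matched peaks, a difference that did not pass (adjusted p 1.00), but within promoter peaks in 0.654% of members and 5.37% of the comparison (adjusted p 0.00126). Those promoter peaks were not matched on signal. GAATACCC was in 2.90% of all peaks, 0.577% of all start sites and 0.636% of pooled regions that overlap no peak. In 2 settings chosen after seeing the data it did not pass (exact test). These were peaks of the most frequent width (odds ratio 0.556, adjusted p 0.823) and G and C at or above the median (0.227, 0.147). The word had been picked out earlier on these same peaks, so its presence among the elements is not independent of them.

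Of the 3 remaining elements, the repeat GCAGCAGC was in 4.59% of members and 1.81% of the comparison (adjusted p 0.0110), the homeodomain core TAATTA in 6.49% and 11.7% (0.0119) and the forkhead site TGTTTAC in 7.84% and 12.7% (0.0324), by the same exact test. None of these 3 passed against the matched peaks or among promoter peaks alone. The p38b peak, at chr2L:13780537-13780906, held a DRE, a GAATACCC word and a GCAGCAGC repeat within 100 bp of its summit. It had a pooled signal of 223, ranks of 1023 and 2141 in replicates 1 and 3, and a region of replicate 2 363 bp from its edge. A match of letters describes the sequence and is no evidence that a factor was bound.

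The members were assigned to 358 genes, of which 201 had no peak other than members and 157 also had a peak found in replicate 2. In 12 genes there were 2 members and in none 3 or more. REPTOR, a transcription factor of the TORC1 pathway, had members 64 and 40 bp downstream of 2 start sites, with signals of 160 and 149.7. The co-repressor gene Sin3A had one of 176.5 at a promoter and one of 171 in an intron, and lawc, a gene of the trithorax group, had 2 at start sites with 254 and 223. Sarm, an NAD hydrolase of axon degeneration, had both of its members in introns, with signals of 211 and 228.

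On 17 gene lists drawn up for embryonic signalling, patterning and housekeeping functions, 54 of 522 peaks were members, or 10.3%, the same as the 10.3% of all peaks. At promoters the lists held 48 members among 232 peaks, beside 306 among all 1832 promoter peaks, or 16.7%. No list is tested here. Counts are read against the share of all peaks, or of all promoter peaks for counts at promoters. The list's pooled signal is read with them, since weaker peaks were members more often.

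Among signalling genes, the Dpp and activin list had 5 members among 32 peaks (15.6%), beside 10.3% of all peaks. At promoters, where 16.7% of all peaks were members, the list had 7 peaks and all 5 of its members. They included the type I receptor gene tkv (pooled signal 265; 151.9 in replicate 1 and 97.9 in replicate 3), the type II receptor gene wit (213), the secreted modulator cv-2 (197) and the ligand mav (193). The Wnt list had 5 of 40 (12.5%). Among them were the receptor gene fz (183), the ligand Wnt5 (183) and the nuclear effector pan (166), all within 100 bp of a start site. Also among them was the glypican dlp (187), whose member lay in an intron. The Hippo list had 4 of 21 (19.0%): the apical determinant crb (247), the scaffold kibra (202), the kinase wts (169) and its cofactor mats (159). The kibra peak was 117 bp from a region of replicate 2 and the mats peak 7418 bp.

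On the remaining signalling lists, the shares lay on both sides of the 10.3% of all peaks. JNK signalling had 3 of 34 (8.82%), at msn, an upstream kinase (230), pyd, the fly ZO-1 (182), and Traf4, an adaptor (156). The EGFR, FGF and Ras list had 2 of 48 (4.17%), at the receptor gene Egfr (178) and at S, which traffics its ligand Spitz (158). Hedgehog signalling had 2 of 18 (11.1%), at dlp and at the ubiquitin ligase adaptor rdx. Notch signalling had 1 of 16 (6.25%), at the metalloprotease gene kuz (200.4). On the Toll list, the pathway in which wek itself is known, the member was 1 of 17 peaks (5.88%), an intronic peak 2494 bp from the start of spz, the gene of the Toll ligand (154).

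Genes of the nervous system and of cell contacts had all their members at promoters, where 82.7% of all members lay. The same held on other lists, such as Dpp and activin, JNK and epithelial, tracheal and mesoderm regulators. Of all promoter peaks, 16.7% were members. On the axon guidance and synapse list 9 of 54 peaks were members, or 16.7%, all within the list's 21 promoter peaks. The Wnt5 receptor gene drl had a signal of 269 (143.1 in replicate 1 and 123.0 in replicate 3), the midline regulator comm 248, and the semaphorins Sema1b and Sema1a 204 and 203. On the adhesion and polarity list 7 of 38 peaks were members, all at promoters, including cora of the septate junction (262), rhea, the fly talin (198), and the planar polarity gene pk (181). The medians of pooled signal on the 2 lists were 203 and 195.5, below the 218 of all peaks. Among lists with a median above it, shares of members lay on both sides of the 10.3% of all peaks. Dpp and activin (median 241, share 15.6%), Hippo (219, 19.0%) and ecdysone (239, 12.8%) lay above. EGFR, FGF and Ras (266, 4.17%), Toll (230, 5.88%), cytosolic ribosomal proteins (447, 5.33%) and epithelial, tracheal and mesoderm regulators (227, 8.77%) lay below. So did translation factors and mitochondrial ribosomal proteins, with medians of 230 and 268.

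Developmental regulators had members on 4 further lists. Epithelial, tracheal and mesoderm regulators had 5 of 57, among them pros (189), lbe (169), vvl (156) and ab (153), all at promoters. The ecdysone list had 5 of 39, at the receptor gene EcR (186), its co-activator tai (173), the cyclin-dependent kinase gene Eip63E (160) and the co-repressor Smr (159). Segmentation genes had 1 of 20, at ftz-f1 (148), and the homeotic list 2 of 10, at tio (178) and 24572 bp from the start of Dfd (150.7).

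Protein synthesis genes had few members, but only the list of cytosolic ribosomal proteins had many promoter peaks. Mitochondrial ribosomal proteins had 10 and translation factors 17, too few to set against the 16.7% of all promoter peaks. Cytosolic ribosomal protein genes had 4 of 75 peaks, or 5.33%, although 73 of the 75 lay at promoters, where 16.7% of all peaks were members; the list's median pooled signal was 447, in the class above 373.4 where 0.558% of all peaks were members. They included RpS14b (171), RpS14a (162) and RpL26 (160). RpS14a and RpS14b are near-identical neighbours on the X chromosome, and whether reads were shared between the copies was not tested. Mitochondrial ribosomal protein genes had 0 of 10 and translation factors 1 of 20, at eIF3a, whose signal of 273 came with ranks of 901 and 2285 in replicates 1 and 3 and a gap of 10285 bp to the nearest region of replicate 2.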

How the data were processed

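Chromatin immunoprecipitation libraries of 3 biological replicates were represented by deposited region lists on dm6, per the labels. The authors gave each region a signal (column 7) and a −log10 q-value, per the file columns of the deposited lists; no aligner or peak caller is given in the sources used here, and read depth and the unit behind the signal are unknown. Lists comprised 3 replicate lists, a pooled list of 30000 regions and the thresholded list of 3582 peaks. The numbers of replicates are labels of 1 group.

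The members, gene lists and elements were chosen with earlier results of these data known. Overlap meant at least 1 shared base. Comparison peaks were also matched 1 to 1 on signal, nearest first, without replacement. Coding genes and start sites came from Ensembl release 115 (BDGP6.54), whose assembly, like that of the RefSeq genome read for sequences, is the Release 6 assembly called dm6. A peak was given to the coding gene with the nearest start site within 500 bp, otherwise to the gene holding its summit, otherwise to the nearest start site. Of 476 gene symbols on the lists 468 matched, 20 of them through synonyms. Elements were matched by exact letters on both strands, overlapping matches allowed. Fisher's exact tests were 2-sided and adjusted by Benjamini-Hochberg within each family; intervals are Clopper-Pearson at 95% and cover counting error only. Named genes were the 20 members of highest signal, up to 4 per list, those with several members, 2 per passing element outside 2R and those next to the threshold of the rule; the genes with 2 members were named after their values were seen. Calculations used Python 3.11.15, pandas 2.3.3, NumPy 2.4.6 and SciPy 1.17.1, after the overlap, matching and test steps had been tested on simulated data. Alternatives changed the overlap rule, list length, peak set, comparison set, promoter distance and search window.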

Additional observations from a re-analysis of the deposited data

How the results depend on the processing

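Promoter location passed under all 14 alternatives, with odds ratios from 3.95 to 6.49. Leaving out replicate 1 or replicate 3 from the comparison gave 5.34 and 5.29, with 5 location features and 7 elements past the threshold each time; without replicate 2 the rule has no members. No paired analysis was possible because the samples form 1 group. Among peaks above the median signal, members numbered 73, intergenic location no longer passed (odds ratio 0.374), and 0 elements passed, with 5 at an unadjusted p under 0.05 (Fisher's exact test). Odds ratios there were 2.41 for the GAGA repeat, 0.421 for the TATA box, 2.95 for the CAG repeat, 0.283 for the homeodomain core, 0.609 for the forkhead site and 0.266 for GAATACCC, while the DRE turned to 0.938. The number of elements past the threshold was 11 when 50% of the peak had to be covered, 11 with the 15000 strongest regions of replicate 2, 3 against the matched peaks and, in settings chosen after seeing the data, 3 among promoter peaks and 2 among peaks with G and C at or above the median. The cause of these shifts was not tested. The unknown read depth and the fixed list length limit every statement on absence from replicate 2.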
